A study of Mus musculus with 12 samples.

Results

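Rpl13a, Ppia and Hsp90ab1, genes of protein synthesis and folding, were measured in left ventricles (LVs) of 12 mice on 1-color arrays for long noncoding RNAs and mRNAs. They were chosen by name, as 3 of the 15 housekeeping genes whose control probes could be named among 60915 probes, by a rule that uses no measured value. All mice were C57BL/6J and carried the GRK-beta1AR transgene, a β1-adrenergic receptor without phosphorylation sites for G protein-coupled receptor kinases, whose signaling through β-arrestin is impaired. That transgene is expressed in cardiomyocytes. TG mice carried it alone, and double transgenic (DTG) mice also carried a miR-150 transgene driven by the CAG promoter, which is not restricted to cardiomyocytes. Treatment lasted 1 week, with isoproterenol (ISO), a β-agonist, or with vehicle (Veh, ascorbic acid in saline). The 4 groups held 3 mice each, labelled as separate biological replicates, with 1 array per mouse and 1 mouse labelled female in every group. Labelled ages were 9, 9 and 12 weeks in TG_Veh, 9, 10 and 10 weeks in TG_ISO, 10 weeks for all 3 mice in DTG_Veh, and 10, 11 and 12 weeks in DTG_ISO.

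Rpl13a is a protein of the large ribosomal subunit, and its transcript belongs to those whose translation follows growth signals. Ppia (cyclophilin A) is a peptidyl-prolyl isomerase that speeds the folding of proteins at proline residues and is the binding partner of ciclosporin. Hsp90ab1 is the constitutive β form of the cytosolic chaperone HSP90, which holds kinases and steroid receptors in an active fold. Hypertrophic growth of the heart raises the demand for ribosomes and chaperones, yet transcripts of this kind are often used as references whose level is taken to be steady.

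In the annotation used here (RefSeq, GRCm38.p6), Rpl13a hosts 4 small nucleolar RNA genes, namely Snord32a, Snord33, Snord34 and Snord35a, which guide methylation of ribosomal RNA. The promoters of Rpl13a and Ppia are shown because the reference used here held no promoter sequence for Hsp90ab1. Of the 3 genes, this pair also had the most similar levels over the 12 arrays (r = 0.967). That value rests on the 3 arrays that stand apart, and r was 0.618 over the other 9. Each line gives the 250 bases before the annotated start, 5′ to 3′ on the strand of the gene, for chr7:45128746-45128995 (minus strand) and chr11:6415617-6415866 (plus strand). Capitals mark the motifs searched for on either strand. The TATA box was searched for as TATAAA. The letters of the CCAAT box are those of its name. The GC box was written GGGCGG. For the E box the letters were CACGTG, and no matches overlap.
Rpl13a: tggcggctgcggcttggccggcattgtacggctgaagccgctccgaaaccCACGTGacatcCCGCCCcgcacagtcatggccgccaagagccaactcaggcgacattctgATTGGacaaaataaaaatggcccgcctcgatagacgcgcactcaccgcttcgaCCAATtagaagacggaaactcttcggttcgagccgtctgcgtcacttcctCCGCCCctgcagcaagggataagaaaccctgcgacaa
Ppia: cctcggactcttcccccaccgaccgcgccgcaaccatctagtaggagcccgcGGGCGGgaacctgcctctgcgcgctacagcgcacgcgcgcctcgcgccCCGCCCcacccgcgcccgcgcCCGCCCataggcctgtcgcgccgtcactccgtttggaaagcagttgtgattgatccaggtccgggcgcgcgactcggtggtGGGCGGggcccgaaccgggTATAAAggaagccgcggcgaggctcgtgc
The Rpl13a window held 2 CCAAT boxes, 2 GC boxes and 1 E box, and no TATAAA. The Ppia window held a TATA box from base -29 to base -24 before the start and 4 GC boxes, and neither CCAAT nor CACGTG. Over 32851 mouse promoter windows of the same length, 12.4% held TATAAA, 33.8% held CCAAT, 32.7% held GGGCGG and 6.02% held CACGTG. The GC content was 58.8% for Rpl13a and 72.4% for Ppia, beside a median of 52.4% over all windows. Both windows thus held GC boxes, and they differed in the other elements searched for.

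The arrays did not separate by group, and this touched every comparison with a TG group. On the component that held 48.3% of the variance over all probes, TG_Veh 3, TG_ISO 1 and TG_ISO 2 scored from 123 to 171, and the other 9 arrays scored from -79 to -26. These 9 were not 1 set, since the 4 arrays of scan 1, the 3 DTG_ISO arrays and DTG_Veh 3, scored from -79 to -67 and the other 5 from -34 to -26. TG_Veh 3 thus lay with TG_ISO 1 and 2, and TG_ISO 3 lay with TG_Veh 1 and 2. These 2 arrays go against their labels, which were kept. Whether the 2 samples were exchanged was not tested, and differences in level and ratio are given with and without them. They were singled out by the values of all probes, so a call made without them carries that choice and is no independent evidence. The arrays were scanned in 3 runs: scan 1 held the 3 DTG_ISO arrays and DTG_Veh 3, scan 2 held replicates 1 and 2 of TG_Veh, TG_ISO and DTG_Veh, and scan 3 held TG_ISO 3 and TG_Veh 3. No scan held both DTG_ISO and TG_ISO, so scan and group cannot be told apart in that comparison except through DTG_Veh. Markers of the tissue and of other cell types were not analysed here, because the files do not pair other probes with gene names.

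Each gene was read by 20 spots of 1 probe per array, and levels are the log2 processed signal minus the 75th percentile of the same array. All 720 spots were well above background and none was saturated. Feature Extraction marked 37 as outliers, which were left out. The SD of the repeated spots within an array had a median of 0.0469 for Rpl13a, 0.0514 for Ppia and 0.0412 for Hsp90ab1. Pooled over the groups, differences between mice of the same group were larger, with an SD of 0.37 for Rpl13a, 0.30 for Ppia and 0.29 for Hsp90ab1. In DTG_ISO alone the SD between mice was 0.058 for Rpl13a and 0.054 for Ppia, near that of the spots, and 0.12 for Hsp90ab1. The spots of a probe share their RNA and array, so they set the precision of a level and not of a comparison.

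**Figure D1:**
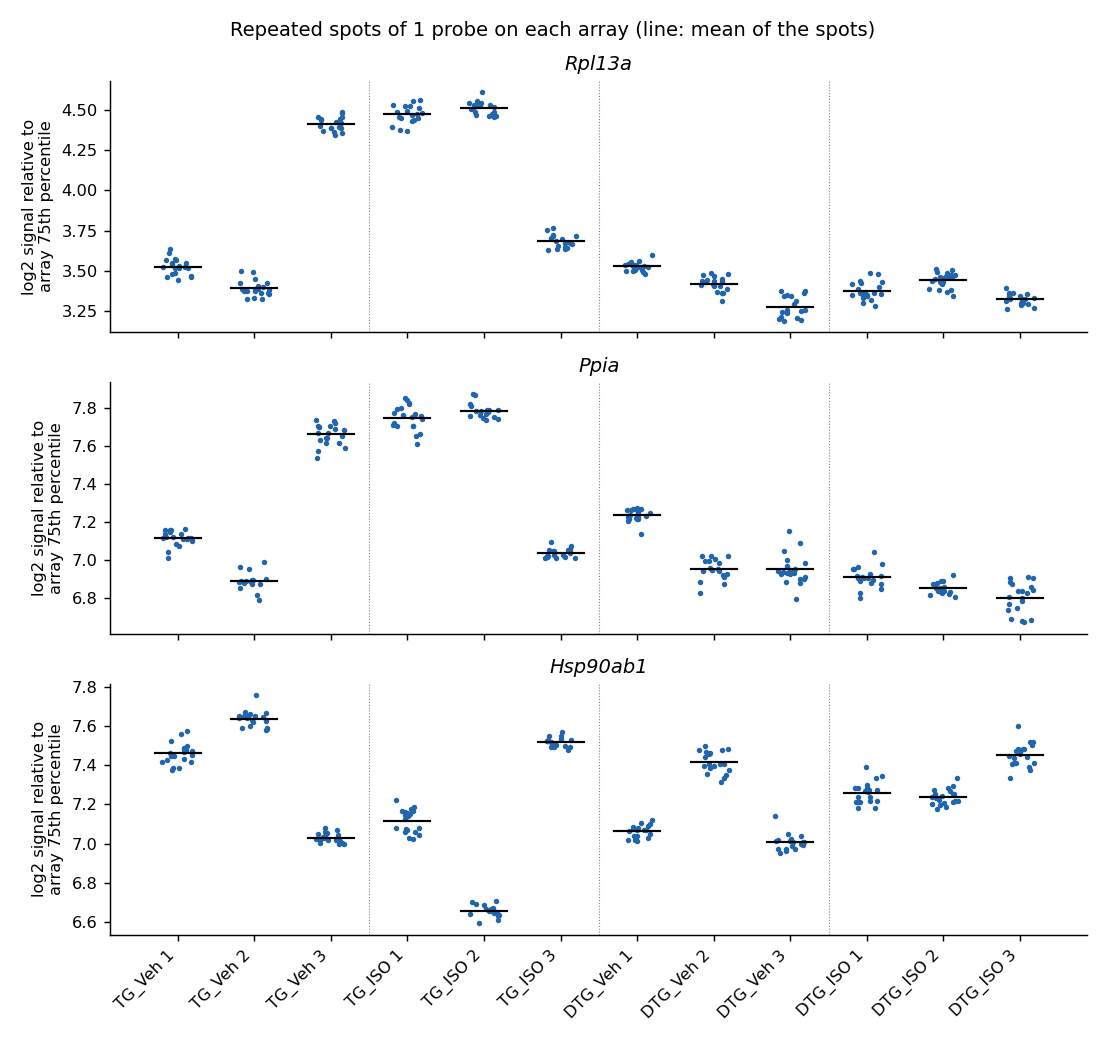
Log2 signal relative to the 75th percentile of the array for every spot kept, with arrays on the horizontal axis and 1 panel per gene (points, spots; lines, means). Spots of 1 array stay close together, and the Rpl13a spots of TG_Veh 3, TG_ISO 1 and TG_ISO 2 all lie above those of the other 9 arrays.

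The ribosomal gene Rpl13a varied most between TG mice. Its level was 3.53, 3.39 and 4.41 in TG_Veh 1 to 3 and 4.47, 4.51 and 3.68 in TG_ISO 1 to 3. Within each TG group, 2 arrays lay close together and the third lay apart, and the groups overlapped. Its level was 3.53, 3.42 and 3.28 in DTG_Veh 1 to 3 and 3.38, 3.44 and 3.32 in DTG_ISO 1 to 3. These 6 DTG arrays spanned 0.25, whereas the 6 TG arrays spanned 1.12. Group means were 3.78 ± 0.55 in TG_Veh, 4.22 ± 0.47 in TG_ISO, 3.41 ± 0.13 in DTG_Veh and 3.38 ± 0.058 in DTG_ISO (SD, n = 3 each). In whole ventricle, a lower signal can come from fewer cells of a type or from less RNA per cell, which cannot be told apart.

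The isomerase gene Ppia followed the same arrays. Its level was 7.11, 6.89 and 7.66 in TG_Veh 1 to 3 and 7.75, 7.78 and 7.04 in TG_ISO 1 to 3. TG_Veh 3 was again near TG_ISO 1 and 2, and TG_ISO 3 was near TG_Veh 1. Its level was 7.23, 6.95 and 6.95 in DTG_Veh 1 to 3 and 6.91, 6.85 and 6.80 in DTG_ISO 1 to 3. All 3 DTG_ISO values lay below every DTG_Veh value, as for 5.9% of all probes. Group means were 7.22 ± 0.40 in TG_Veh, 7.52 ± 0.42 in TG_ISO, 7.05 ± 0.16 in DTG_Veh and 6.86 ± 0.054 in DTG_ISO (SD, n = 3 each).

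The chaperone gene Hsp90ab1 ran the other way in TG mice. Its level was 7.46, 7.64 and 7.03 in TG_Veh 1 to 3 and 7.12, 6.66 and 7.52 in TG_ISO 1 to 3. TG_Veh 3 was low for its group and TG_ISO 3 was high for its group, the reverse of Rpl13a and Ppia. Its level was 7.06, 7.41 and 7.01 in DTG_Veh 1 to 3 and 7.26, 7.24 and 7.45 in DTG_ISO 1 to 3. All 4 groups overlapped. Group means were 7.38 ± 0.31 in TG_Veh, 7.10 ± 0.43 in TG_ISO, 7.16 ± 0.22 in DTG_Veh and 7.32 ± 0.12 in DTG_ISO (SD, n = 3 each).

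**Figure D2:**
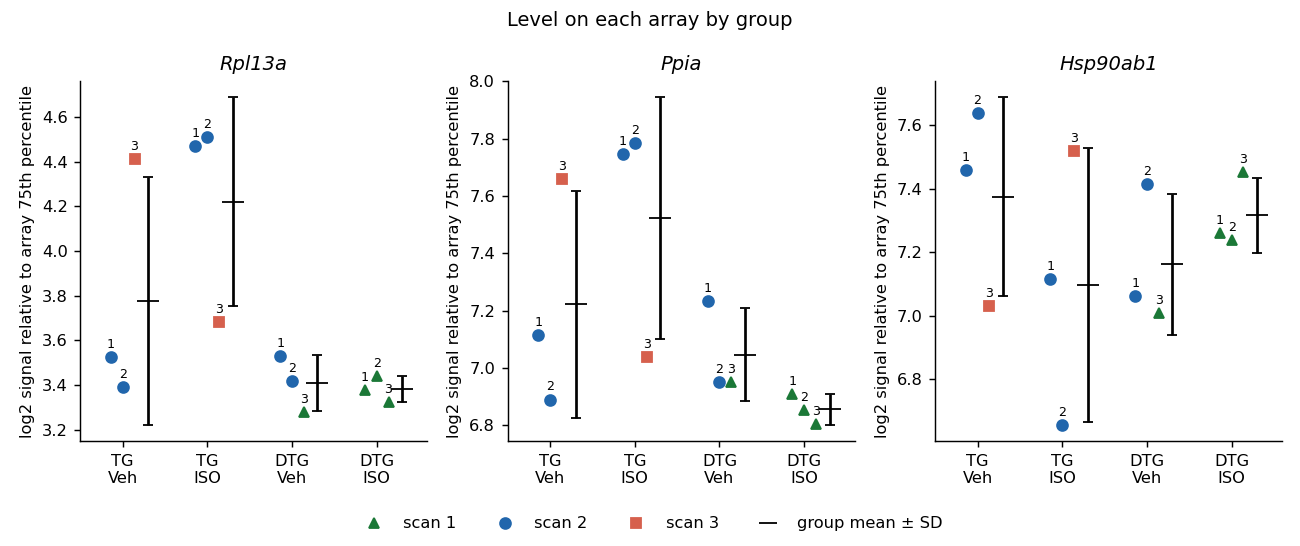
Log2 signal relative to the 75th percentile of the array by group for each gene, with replicate numbers beside the points, marker shape and color for the scan, and black bars for the group mean ± SD of 3 arrays. For Rpl13a and Ppia, TG_Veh 3 is the highest array of its group and TG_ISO 3 the lowest, each apart from the other 2 arrays. For Hsp90ab1, TG_Veh 3 is the lowest and TG_ISO 3 the highest, and the TG_ISO arrays are spread out.

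By mean level, the order of the groups for both Rpl13a and Ppia was TG_ISO, TG_Veh, DTG_Veh and DTG_ISO, from high to low. For Hsp90ab1 the order was TG_Veh, DTG_ISO, DTG_Veh and TG_ISO. Those neighbors in these orders that were compared did not pass the limma test over all 12 arrays, which pools the spread of all groups. For Ppia, DTG_ISO lay wholly below DTG_Veh, as for 5.9% of all probes. DTG_ISO and TG_Veh, and DTG_Veh and TG_ISO, are neighbors for Hsp90ab1 that were not compared.

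To ask whether ISO changed these transcripts in TG hearts, TG_ISO was compared with TG_Veh. None of the 3 genes passed the limma test with Benjamini-Hochberg adjustment over all probes. Of all probes tested, 0% passed that test and 1.83% had an unadjusted p under 0.05. Rpl13a was 0.44 higher on the log2 scale in TG_ISO (SE 0.30, 95% confidence interval -0.22 to 1.11), Ppia was 0.30 higher (SE 0.26, interval -0.27 to 0.88) and Hsp90ab1 was 0.28 lower, a difference of -0.28 (SE 0.26, interval -0.84 to 0.29). The adjusted p was 0.999 for each gene.

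The comparison in TG hearts depended on TG_ISO 3 and TG_Veh 3. Without both arrays, Rpl13a rose by 1.03 (SE 0.18, limma adjusted p = 0.0062) and Ppia rose by 0.76 (SE 0.19, limma adjusted p = 0.0267). These are changes of 2.04-fold and 1.70-fold. The difference for Hsp90ab1 was -0.66 (SE 0.23, limma adjusted p = 0.0853), which did not pass. In that fit 17.1% of all probes passed, so 2 calls among 3 genes came against a wide background. Fitted within scan 2 alone, which holds the same 4 TG arrays, the differences were the same. Rpl13a was still called (limma adjusted p = 0.0319, where 7.02% of probes were called higher) and Ppia was not (0.76, limma adjusted p = 0.0784). In scan 3, where each group had a single array, TG_ISO 3 minus TG_Veh 3 was -0.73 for Rpl13a, -0.62 for Ppia and 0.49 for Hsp90ab1. All 3 differences had the opposite sign to those of scan 2.

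In DTG hearts, no difference between ISO and vehicle passed the test for these genes. DTG_ISO minus DTG_Veh was -0.028 for Rpl13a (SE 0.30, interval -0.69 to 0.63), -0.19 for Ppia (SE 0.26, interval -0.76 to 0.38) and 0.15 for Hsp90ab1 (SE 0.26, interval -0.41 to 0.72). Limma adjusted p was 0.996, 0.959 and 0.972. None passed, nor did any other probe (0%), and 5.84% of probes had an unadjusted p under 0.05. TG_ISO 3 and TG_Veh 3 are in neither group, so the differences were the same in the fit without them, and limma adjusted p was 0.954, 0.64 and 0.764. Within scan 1, where DTG_Veh 3 was the only vehicle array, Rpl13a had the other sign at 0.10, while Ppia was at -0.096 and Hsp90ab1 at 0.31.

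To ask what the miR-150 transgene did without ISO, DTG_Veh was compared with TG_Veh. The differences were -0.37 for Rpl13a (SE 0.30, interval -1.03 to 0.29), -0.18 for Ppia (SE 0.26, interval -0.75 to 0.40) and -0.21 for Hsp90ab1 (SE 0.26, interval -0.78 to 0.35). None passed, with limma adjusted p of 0.863, 0.886 and 0.872, beside 0.00443% of all probes, and 5.22% had an unadjusted p under 0.05. TG_Veh 3 set much of the size for Rpl13a and Ppia. Without TG_ISO 3 and TG_Veh 3, the differences were -0.050 for Rpl13a, 0.044 for Ppia and -0.39 for Hsp90ab1, and none passed.

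The genotypes lay furthest apart under ISO for the ribosomal and the isomerase gene. DTG_ISO was 0.84 below TG_ISO for Rpl13a, a log2 difference of -0.84 (SE 0.30, interval -1.50 to -0.18) or 1.79-fold, and the difference was -0.67 for Ppia (SE 0.26, interval -1.24 to -0.095), or 1.59-fold. For both genes every DTG_ISO array lay below every TG_ISO array, as for 14.1% of all probes. Neither passed the adjusted threshold, with limma adjusted p of 0.123 for Rpl13a and 0.143 for Ppia. Their unadjusted p was 0.0174 and 0.0263, in a comparison where 26.8% of all probes had an unadjusted p under 0.05 and 0% passed after adjustment. The difference for Hsp90ab1 was 0.22 (SE 0.26, interval -0.34 to 0.78, limma adjusted p = 0.588), and the groups overlapped.

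The same comparison gave other calls in other fits. Without TG_ISO 3 and TG_Veh 3, Rpl13a was lower in DTG_ISO by a log2 difference of -1.11 (SE 0.16, limma adjusted p = 0.00216) and Ppia by -0.91 (SE 0.17, limma adjusted p = 0.00642), where 30.6% of all probes passed. Hsp90ab1 was at 0.43 (SE 0.21, adjusted p = 0.151). With array weights, Rpl13a (-1.03) and Ppia (-0.83) were called, beside 51% of all probes, and the methods' t-test before adjustment called Rpl13a (-0.84), beside 26.6%. With scan as a block, the differences were -0.62 for Rpl13a (SE 0.60) and -0.54 for Ppia (SE 0.52), and limma adjusted p was 0.998 for both. That fit reaches from DTG_ISO to TG_ISO only through DTG_Veh 3 on one side and DTG_Veh 1 and 2 on the other. The part of scan in the difference was not tested further.

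The interaction asks whether ISO acted differently in the 2 genotypes. It was -0.47 for Rpl13a (SE 0.42), -0.49 for Ppia (SE 0.37) and 0.43 for Hsp90ab1 (SE 0.36), with a limma adjusted p of 0.927 for each. No probe passed (0%), and 4.37% had an unadjusted p under 0.05. Without TG_ISO 3 and TG_Veh 3 it was -1.06 for Rpl13a (adjusted p = 0.0277), -0.95 for Ppia (adjusted p = 0.0463) and 0.82 for Hsp90ab1 (adjusted p = 0.121), in a limma fit where 8.94% of probes passed. Whether ISO acted differently on Rpl13a and Ppia in TG and DTG hearts thus rested on these 2 arrays.

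**Figure D3:**
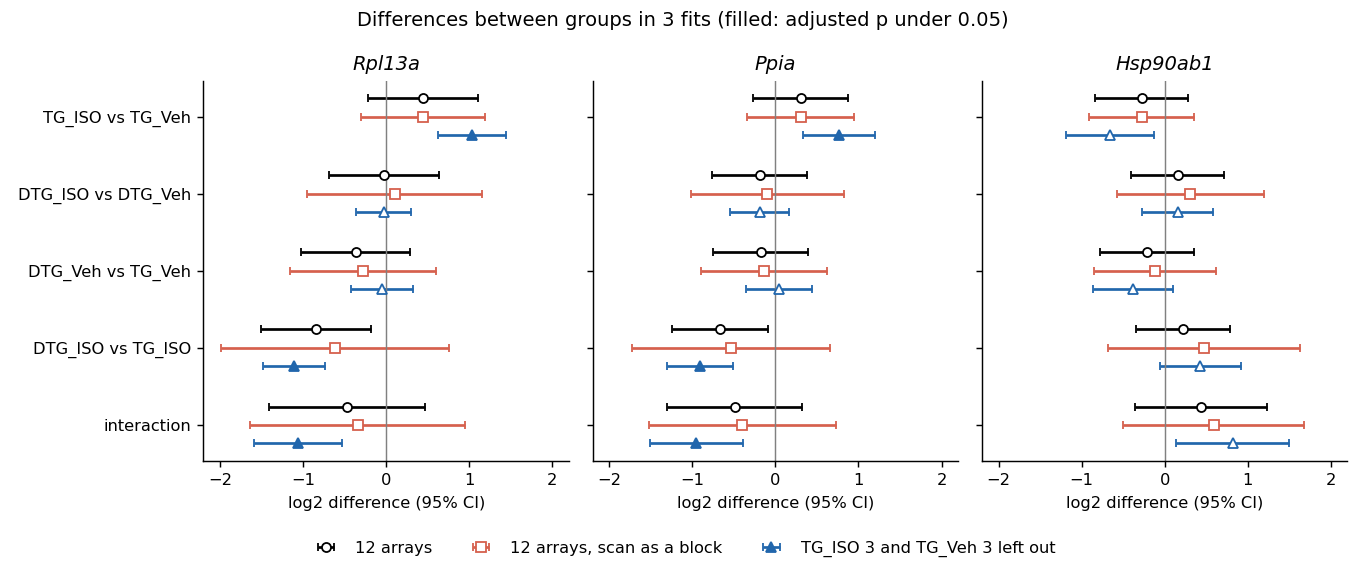
Log2 differences with 95% confidence intervals (horizontal axis) for the 5 comparisons (vertical axis) in 3 limma fits, with filled symbols where the adjusted p was under 0.05. Rpl13a and Ppia are called in 3 comparisons each only in the fit without TG_ISO 3 and TG_Veh 3, and the intervals for DTG_ISO against TG_ISO widen with scan as a block.

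The genes were also set against each other within each array, which removes the scaling between arrays. Each log2 ratio is given minus its mean over the 12 arrays, so that only differences between arrays are read. The ratio of Rpl13a to Ppia was -0.12, -0.034 and 0.22 in TG_Veh 1 to 3 and 0.19, 0.19 and 0.11 in TG_ISO 1 to 3. It was -0.24, -0.068 and -0.21 in DTG_Veh 1 to 3 and -0.070, 0.053 and -0.013 in DTG_ISO 1 to 3. All TG_ISO values were positive and above every DTG value.

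Averaged over both treatments, the ratio of Rpl13a to Ppia was 0.18 lower in DTG than in TG, a difference of -0.18 (exact permutation test within treatment, two-sided, p = 0.01, adjusted p = 0.06 over the 6 ratio tests). This did not pass after adjustment. It was -0.19 under vehicle and -0.17 under ISO. By treatment, the ratio was 0.15 higher with ISO (exact permutation p = 0.045, adjusted p = 0.135). Without TG_ISO 3 and TG_Veh 3, the difference was -0.15 by genotype (exact permutation p = 0.03, adjusted p = 0.1) and 0.21 by treatment (exact permutation p = 0.0333, adjusted p = 0.1). The genotype difference was -0.081 with quantile normalization. Within scan 2, which held no DTG_ISO array, it was -0.076 for vehicle alone, and the treatment difference was 0.27 for TG alone. The 400 relabelings allow no p below 0.005. Over the 12 arrays this ratio spanned 0.46, whereas the levels spanned 1.23 for Rpl13a and 0.98 for Ppia.

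Ratios with Hsp90ab1 varied over a wider range. The ratio of Hsp90ab1 to Ppia was 0.27, 0.67 and -0.71 in TG_Veh 1 to 3, -0.71, -1.20 and 0.40 in TG_ISO 1 to 3, -0.25, 0.39 and -0.020 in DTG_Veh 1 to 3, and 0.27, 0.31 and 0.57 in DTG_ISO 1 to 3. TG_Veh 3 and TG_ISO 1 and 2 were the lowest arrays. The mean for DTG minus TG was 0.42 (exact permutation p = 0.245, adjusted p = 0.367), from 0.89 under ISO and -0.038 under vehicle. For ISO minus vehicle it was -0.12 (exact permutation p = 0.785, adjusted p = 0.785), from 0.35 in DTG and -0.58 in TG. The ratio of Hsp90ab1 to Rpl13a gave 0.61 by genotype (exact permutation p = 0.16, adjusted p = 0.32), from 1.06 under ISO and 0.15 under vehicle. By treatment that ratio gave -0.27 (exact permutation p = 0.53, adjusted p = 0.636), from 0.18 in DTG and -0.72 in TG. The group means of Hsp90ab1/Rpl13a were 0.058 in TG_Veh, -0.67 in TG_ISO, 0.21 in DTG_Veh and 0.40 in DTG_ISO, and the same 3 arrays were lowest. With TG_ISO 3 and TG_Veh 3 left out, the treatment differences were -0.54 for Hsp90ab1/Ppia and -0.75 for Hsp90ab1/Rpl13a, the genotype differences were 0.46 and 0.60, and the adjusted p was 0.3 for all 4 by exact permutation. Scan 2 held no DTG_ISO array, so genotype was compared there under vehicle alone and treatment in TG alone. The genotype differences there were -0.40 for Hsp90ab1/Ppia and -0.32 for Hsp90ab1/Rpl13a. The treatment differences there were -1.43 and -1.69, with an exact permutation p of 0.333 for both. That is the smallest p that 2 arrays against 2 allow, so that test cannot decide whether they differ.

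**Figure D4:**
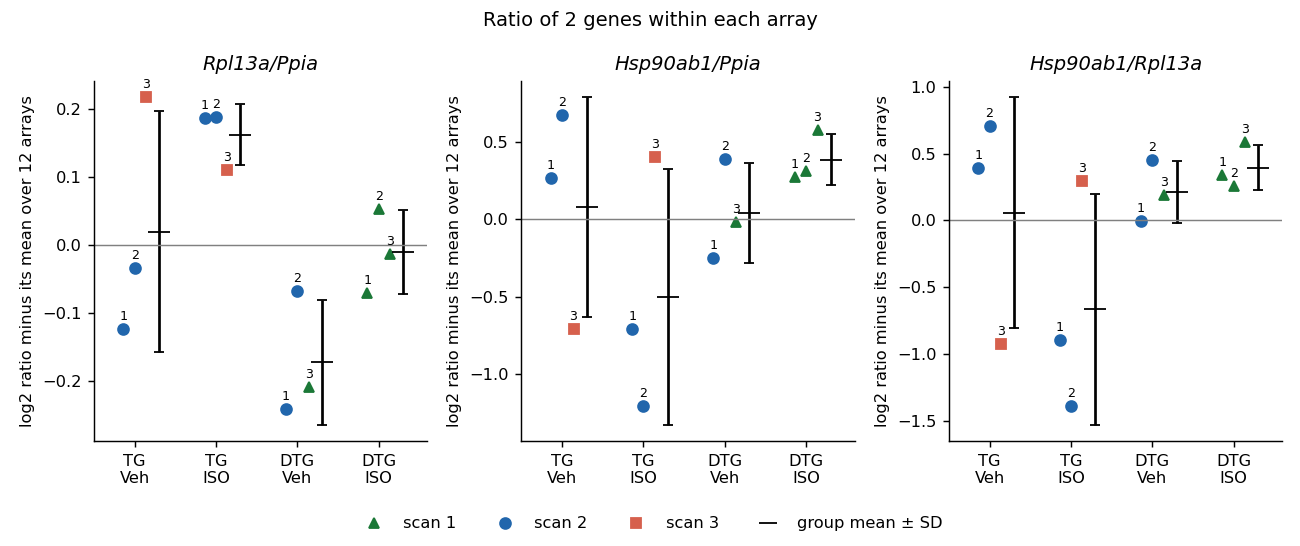
Log2 ratio of 2 genes within each array, minus its mean over the 12 arrays, by group (shapes and colors, scans; numbers, replicates; black bars, mean ± SD of 3 arrays). Rpl13a/Ppia stays between -0.24 and 0.22, while both ratios with Hsp90ab1 are at -0.71 or lower on TG_Veh 3, TG_ISO 1 and TG_ISO 2.

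Among the 15 named housekeeping probes, the 3 genes lay in the middle to upper part by range over the 12 arrays. The range was 0.98 for Hsp90ab1 (rank 7 from the narrowest), 0.98 for Ppia (rank 8) and 1.23 for Rpl13a (rank 10). It was 0.29 for Hprt, a purine salvage enzyme and the narrowest, and 2.13 for Tfrc, the transferrin receptor and the widest. Over the 9 arrays outside the high end of the first component, the range was 0.43 for Ppia, 0.41 for Rpl13a and 0.63 for Hsp90ab1. TG_Veh 3, TG_ISO 1 and TG_ISO 2 were the 3 highest arrays for Rpl13a (at least 4.41, against at most 3.68 elsewhere) and for Ppia (at least 7.66, against at most 7.23). For Hsp90ab1 they were neither the 3 highest nor the 3 lowest. They were the 3 highest for 4 and the 3 lowest for 2 of the other 12 named probes, and for 15.9% and 16.2% of 44739 probes with a value on every array.

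**Figure D5:**
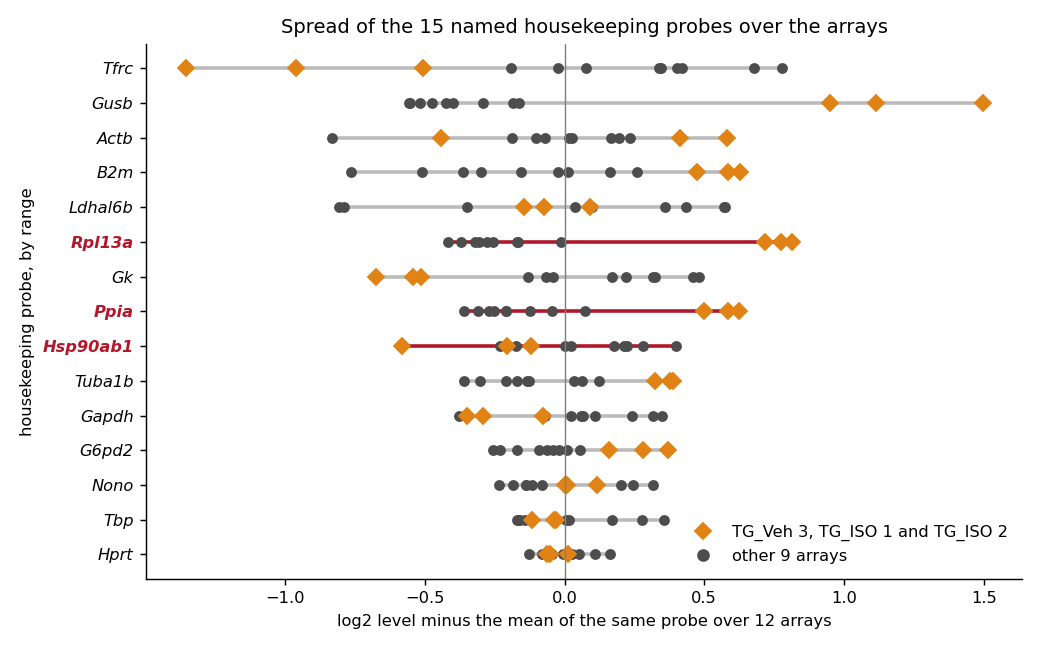
Log2 level of each named housekeeping probe minus its own mean over 12 arrays (horizontal axis), ordered by range (vertical axis), with Rpl13a, Ppia and Hsp90ab1 in red and diamonds for TG_Veh 3, TG_ISO 1 and TG_ISO 2. Those 3 arrays form the upper end for Rpl13a and Ppia and mix with the other 9 arrays for Hsp90ab1.

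The named probes most like each gene, by Pearson correlation over the 12 arrays, are given as a description, since all arrays share their groups and the 3 separate arrays. For Rpl13a they were Ppia (r = 0.967) and Gusb, a lysosomal glucuronidase (r = 0.941). For Ppia, beside Rpl13a, it was Tuba1b, an α-tubulin (r = 0.952). For Hsp90ab1 they were Gapdh, a glycolytic enzyme (r = 0.482), and Tbp, the TATA-binding protein (r = 0.442). Over the other 9 arrays alone, r was 0.618 for Rpl13a with Ppia, -0.243 for Rpl13a with Gusb, 0.898 for Ppia with Tuba1b, 0.041 for Hsp90ab1 with Gapdh and 0.499 for Hsp90ab1 with Tbp.

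Correlations among the 3 genes were not tested within a set of like arrays. The 9 arrays outside the high end of the first component fell into small sets of 4 and 5, which differ by scan and group. Over these 9 arrays the values are given as a description, with no test. For Rpl13a and Ppia, Pearson's r was 0.618 and Spearman's rho was 0.65. Without DTG_Veh 3 and TG_ISO 3, the arrays farthest from the median of Rpl13a, r was 0.893, and with quantile normalization it was 0.150 over the 9 arrays. For Hsp90ab1 and Ppia, r was -0.282 and rho was -0.083, and r was 0.241 without DTG_Veh 1 and DTG_Veh 3. For Hsp90ab1 and Rpl13a, r was 0.285 and rho was 0.267, and r was 0.228 without DTG_Veh 1 and DTG_Veh 3.

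In DTG_ISO against TG_ISO, where Rpl13a and Ppia had an unadjusted p under 0.05, so did 7 of the other 12 named probes, 3 higher and 4 lower in DTG_ISO, beside 26.8% of all probes. The higher ones were Tfrc (a log2 difference of 1.00, limma adjusted p = 0.17), Ldhal6b, of the lactate dehydrogenase family (0.79, 0.148), and Gk, glycerol kinase (0.65, 0.166). Ldhal6b was dim, and well above background on 2 of the 3 TG_ISO arrays. None of the 15 passed after adjustment. The lower ones were B2m, the light chain of MHC class I (a log2 difference of -0.85, limma adjusted p = 0.0959), Actb, cytoplasmic β-actin (-0.78, 0.099), Gusb (-1.09, 0.178) and Tuba1b (-0.53, 0.14). Without TG_ISO 3 and TG_Veh 3, the same comparison called 2 of the 12 higher and 4 lower, beside 30.6% of all probes. A lower mean in DTG_ISO was thus shared by named genes outside protein synthesis and folding. Other ribosomal proteins, translation factors, chaperones and isomerases were not analysed here, because their probes carry no gene names in the files.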

How the data were processed

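LVs from 12 mice were profiled on Agilent 1-color arrays. Per the labels, ribosomal RNA was removed and the rest was amplified with random primers. For each array the authors deposited Feature Extraction 11.0.1.1 output, an intensity after background subtraction with no scaling between arrays, and a table of log2 values normalized by a method not given in the sources used here, which served as an alternative. Intensities were divided by the 75th percentile of their array and put on the log2 scale, outlier spots were left out and spots of a probe were averaged. This scaling assumes like upper quartiles of RNA between hearts. A probe was tested if at least 3 of 12 arrays had it well above background. These 45154 probes were fitted with limma 3.58.1 in R 4.3.3 as 4 group means. Tests were two-sided and adjusted by Benjamini-Hochberg across all probes with a value in the groups compared (45152 or 45154), at a threshold of 0.05. All p-values given for differences between groups in level are from this model or, where so stated, from limma fits to fewer arrays or with a block.

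The fit and the permutation test were checked on simulated data drawn independently for each array. Those data held no arrays that stand apart and no scans, so the check does not cover these features. The number of arrays limits the precision, and 3 arrays against 3 allow no exact permutation p below 0.1. Ratios used exact permutations. Correlations were computed with permutations too, but are given with no p, because the 9 arrays they use form sets of 4 and 5. Alternatives covered scaling, background correction with normexp (offset 50), filters, averaging of spots, replicate, scan or slide as a block, sex, array weights estimated probe by probe, the variance prior, the methods' t-test and arrays left out. Slides were inferred from array positions. The genes, lists and alternatives were chosen with earlier results of these data known. The 3 genes were set by name. For each, the 2 other named probes with the highest correlation over the 12 arrays were described. B2m, Actb, Hprt, Tfrc, Ldhal6b and Gk were named after their values were seen. Probes were named by matching 15 of 15 housekeeping accessions to RefSeq. Lists of ribosomal, translation and chaperone genes and cell type markers were not analysed here, because other probes carry no names. Sequences are from RefSeq (GRCm38.p6). The Hsp90ab1 promoter was not used here, because the reference held none.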

Additional observations from a re-analysis of the deposited data

How the results depend on the processing

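The limits are the 3 arrays per group, the 2 arrays that lie with another group, and scans that hold unequal groups. In the fit over all arrays none of the 15 differences in level passed, and no setting that only changed scaling, background correction, filter or averaging gave a call. Calls arose for Rpl13a and Ppia in DTG_ISO against TG_ISO with array weights (-1.03 and -0.83), which gave TG_Veh 3 and TG_ISO 3 weights of 0.19 and 0.289 and called 51% of all probes, and for Rpl13a there by the methods' t-test before adjustment (-0.84, beside 26.6% of all probes). Rpl13a was called in TG_ISO against TG_Veh within scan 2 (1.03). Without TG_ISO 3 and TG_Veh 3, the calls were Rpl13a and Ppia in TG_ISO against TG_Veh (1.03 and 0.76), in DTG_ISO against TG_ISO (-1.11 and -0.91) and in the interaction (-1.06 and -0.95). The cause was not tested.

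Some differences changed sign. Rpl13a in DTG_ISO against DTG_Veh became 0.016 with quantile normalization, 0.012 scaled to the other housekeeping probes, 0.044 in the authors' values, and 0.10 with a scan block, a slide block and within scan 1. In DTG_Veh against TG_Veh, Ppia became 0.042 with array weights, 0.091 within scan 2 and 0.044 without TG_ISO 3 and TG_Veh 3, and Rpl13a became 0.015 within scan 2. Within scan 1, which held DTG arrays alone, the treatment differences were 0.41 for Hsp90ab1/Ppia and 0.21 for Hsp90ab1/Rpl13a. Over all arrays they were 0.35 and 0.18 in DTG. Within scan 2 the genotype differences, for vehicle alone, were -0.40 and -0.32. Over all arrays they were -0.038 and 0.15 under vehicle. Within these scans, the signs were opposite to the means over both genotypes or both treatments. The correlation of Hsp90ab1 and Ppia became 0.34 with quantile normalization. Within the largest scan no correlation was computed, since it held 4 of the 9 arrays.

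Leaving out 1 array at a time gave no call for a level. The range was -0.094 to 0.031 for Rpl13a in DTG_ISO against DTG_Veh, -0.34 to 0.044 for Ppia in DTG_Veh against TG_Veh, -1.11 to -0.70 and -0.91 to -0.54 for Rpl13a and Ppia in DTG_ISO against TG_ISO, and -0.00037 to 0.43 for Hsp90ab1 there, the lowest without TG_ISO 2. In TG_ISO against TG_Veh it was 0.25 to 0.76 for Rpl13a, 0.14 to 0.54 for Ppia and -0.49 to -0.059 for Hsp90ab1, and in the interaction -0.79 to -0.28, -0.74 to -0.33 and 0.21 to 0.64. In DTG_Veh against TG_Veh it was -0.56 to -0.050 for Rpl13a and -0.39 to -0.083 for Hsp90ab1, and in DTG_ISO against DTG_Veh -0.24 to -0.097 for Ppia and 0.078 to 0.28 for Hsp90ab1. For Rpl13a/Ppia by genotype it was -0.22 to -0.13, and without TG_Veh 1 this difference passed (adjusted p = 0.03 by exact permutation). For the ratios with Hsp90ab1 it was -0.34 to 0.058 (Hsp90ab1/Ppia) and -0.52 to -0.088 (Hsp90ab1/Rpl13a) by treatment, and 0.23 to 0.65 and 0.36 to 0.85 by genotype. For r it was -0.41 to 0.12 for Hsp90ab1 with Ppia, and -0.0092 to 0.50 for Hsp90ab1 with Rpl13a. With the replicate number as a block, no level was called, with Rpl13a at -0.84 (limma adjusted p = 0.206) and Ppia at -0.67 (adjusted p = 0.226) in DTG_ISO against TG_ISO. Same-numbered arrays did not deviate together, with correlations over 0.1 in 3 of 18 pairs.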
